A study of Mus musculus with 8 samples.

Results

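10 genes of lipolysis and lipid droplets were followed in RNA-seq of the mouse occipital cortex after 48 h without food. They were chosen by name (Pnpla2, Abhd5, Lipe, Mgll, G0s2, Hilpda, Plin2, Plin3, Plin4 and Angptl4), and all 10 were found among the 24344 gene symbols of the table. The mice were C57BL/6J at postnatal day 35, and the tissue was a homogenate of the cortex of the occipital pole, which holds the visual areas. 4 samples came from mice fasted for 48 h and 4 from mice fed ad libitum, with 1 library per sample. No sex, allele or drug is given in the labels, which also do not say how many animals a sample holds or whether the samples of a group came from separate days or litters, so that p-values measure the spread between these samples. Values are FPKM, fragments per kilobase of transcript scaled to the fragments mapped in the library, which allows levels to be compared between genes.

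Cells store fat as triglyceride in lipid droplets, organelles with a core of neutral lipid under a single phospholipid layer that is coated by perilipins. Lipolysis takes the store apart stepwise: adipose triglyceride lipase, encoded by Pnpla2, removes the first fatty acid, hormone-sensitive lipase (Lipe) the next, and monoacylglycerol lipase (Mgll) the last. The protein of Abhd5 activates the first lipase, and those of G0s2 and Hilpda inhibit it. In the brain, droplets are known mainly from glia and ependyma, and monoacylglycerol lipase is best known for degrading the endocannabinoid 2-arachidonoylglycerol. The protein of Angptl4 is secreted and inhibits lipoprotein lipase, the enzyme that frees fatty acids from circulating triglyceride.

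Of the 10 genes 3 rose in fasted cortex, Plin4, Angptl4 and Pnpla2, and none fell (limma, Benjamini-Hochberg adjusted p under 0.05). By the ratio of mean FPKM, Plin4 was 8.19-fold, Angptl4 3.21-fold and Pnpla2 2.0-fold higher. The other 7 did not pass the test, 6 of them with a negative difference, and 1 of the 7, Hilpda, was lower at an unadjusted p under 0.05. Over all 12377 genes tested, 9.56% rose, 16.3% fell and 25.8% changed in either direction, so that 3 changed genes of 10 is a share near that of the table as a whole. Counted from the largest rise down, with falls placed last, the 3 ranked 11 (Plin4), 18 (Angptl4) and 29 (Pnpla2) among all tested genes. The scale of this order was log2(FPKM + 1). The median difference over the 10 genes was -0.06, and over all tested genes it was -0.02. The rises of Plin4 and Angptl4 need a remark on the filter: a gene was tested where 4 or more of the 8 libraries reached 1 FPKM, and these 2 genes did so only in the fasted libraries. With no filter on low values their adjusted p was 0.000133 and 0.000639, and that of Pnpla2 was 0.000621.

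**Figure D1:**
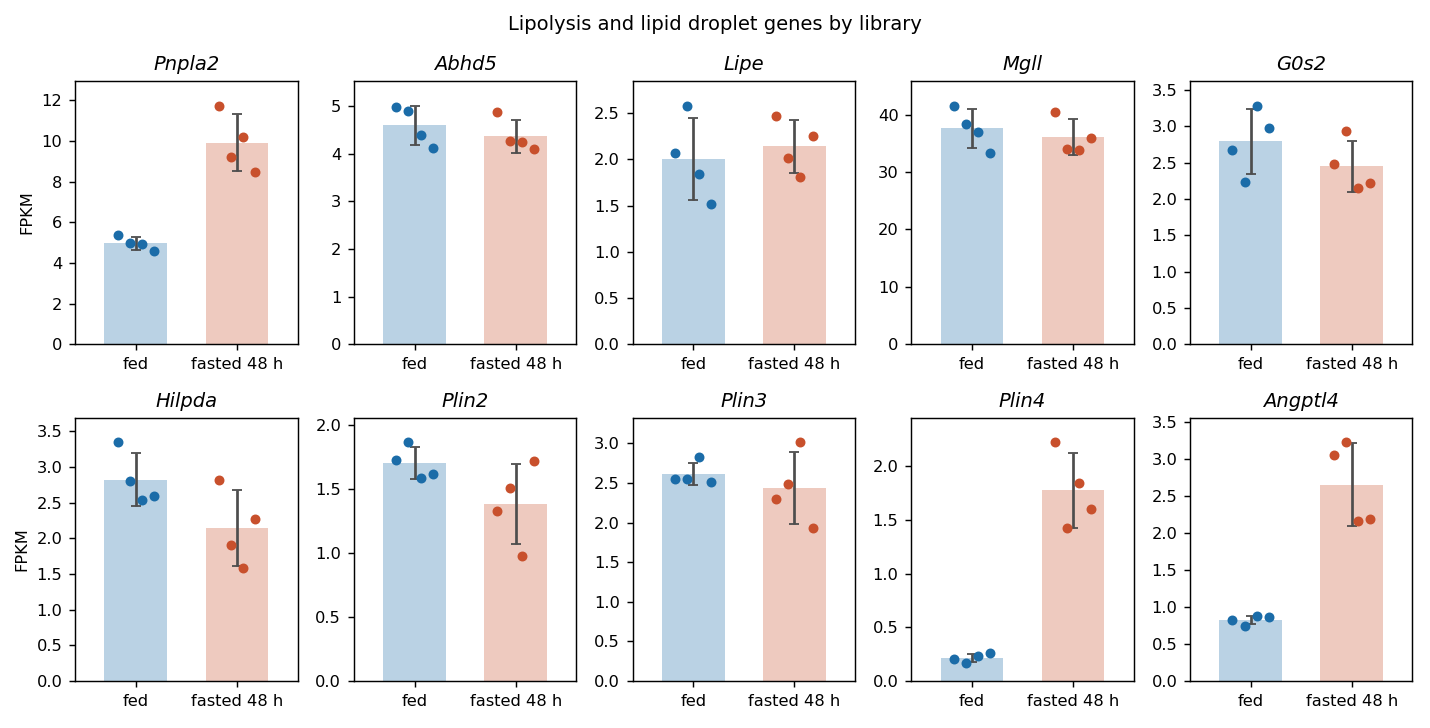
FPKM of each of the 10 genes (vertical axes, each from 0) in fed and fasted libraries, with bars for the mean, error bars for the SD (n = 4) and points for libraries 1 to 4 from left to right. The fasted points of Pnpla2, Plin4 and Angptl4 lie above all fed points, and those of the other 7 genes overlap with them. Over all tested genes the groups did not overlap in 27.6%, and in 11.1% the fasted group was the higher one without overlap.

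Libraries were alike in depth. By an estimate of depth, a 2 kb transcript at 1 FPKM had 34.4 to 43.4 fragments per library, and 12217 to 12440 genes reached 1 FPKM. Of all tested genes, 1183 were higher and 2015 lower in fasted cortex, against 1788 and 1908 after quantile scaling and 1753 and 1936 after median-ratio scaling. Ad libitum replicate 3 held both Xist (32.2 FPKM) and the Y-linked Ddx3y (5.67 FPKM), while each other library held high levels of one or the other only. Xist was the high one in libraries 2 and 4 of both groups. Ddx3y was the high one in library 1 of both groups and in fasted library 3. Whether that library holds tissue of more than 1 animal was not tested. Without that library the differences of Plin4, Angptl4 and Pnpla2 were 1.19, 1.0 and 0.86 on the log2(FPKM + 1) scale, with limma adjusted p = 0.000209, 0.000792 and 0.000795.

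The promoters of a riser from each step, the coat gene Plin4 and the lipase gene Pnpla2, are shown beside that of Plin2, a coat gene of the same family that did not pass the test. Each run covers 250 bases before to 50 after the annotated start, from RefSeq (GRCm38.p6), with motif matches in capitals. The motifs were searched on both strands, and their letters were chosen after the sequences and expression values were known. They were TATAA (TATA box core), GGGCGG (GC box), CACGTG (E-box), ACGTG (core of the hypoxia response element, part of the E-box), GTAAACA (FoxO site), AGAACA alone or followed by any 3 bases and TGTTCT (glucocorticoid receptor), and AGGTCA alone or repeated after any 1 base (nuclear receptors such as PPAR with RXR). The Plin4 window is chr17:56109733-56110032 on the minus strand, that of Pnpla2 chr7:141454938-141455237 on the plus strand and that of Plin2 chr4:86670010-86670309 on the minus strand.
Plin4: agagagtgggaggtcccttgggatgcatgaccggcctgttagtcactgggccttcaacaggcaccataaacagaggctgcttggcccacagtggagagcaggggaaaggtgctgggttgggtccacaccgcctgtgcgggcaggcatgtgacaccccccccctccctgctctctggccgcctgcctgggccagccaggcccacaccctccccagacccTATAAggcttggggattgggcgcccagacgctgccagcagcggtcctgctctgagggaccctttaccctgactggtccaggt
Pnpla2: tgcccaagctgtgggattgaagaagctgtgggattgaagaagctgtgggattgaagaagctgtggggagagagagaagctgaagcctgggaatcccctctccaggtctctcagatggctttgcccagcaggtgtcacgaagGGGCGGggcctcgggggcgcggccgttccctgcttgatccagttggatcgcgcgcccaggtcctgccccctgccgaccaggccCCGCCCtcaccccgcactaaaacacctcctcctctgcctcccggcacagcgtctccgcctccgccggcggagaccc
Plin2: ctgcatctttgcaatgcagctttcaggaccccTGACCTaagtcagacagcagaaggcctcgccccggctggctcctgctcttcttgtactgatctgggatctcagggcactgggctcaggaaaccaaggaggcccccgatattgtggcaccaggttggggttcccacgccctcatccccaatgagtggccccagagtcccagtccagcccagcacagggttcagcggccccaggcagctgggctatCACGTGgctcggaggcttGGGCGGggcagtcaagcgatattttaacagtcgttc

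In the Plin4 window the single match was TATAA from -32 to -28, counted from the annotated start with no position 0. TATAA was found in 24.9% of all 32817 promoter windows of this length. The Pnpla2 window held GGGCGG on the gene strand at -109 to -104 and on the other strand at -26 to -21, and no other motif of the list. The Plin2 window held AGGTCA on the other strand at -218 to -213, CACGTG across the start at -4 to 2, which also holds ACGTG, and GGGCGG at 15 to 20. GGGCGG was in 35.6%, AGGTCA in 16.3%, ACGTG in 19.6% and CACGTG in 7.15% of all windows. RefSeq windows were matched for 9 of the 10 genes, all but Angptl4, with 12 windows in all, and 10 of the 12 held GGGCGG. Neither the full glucocorticoid motif (0.00914% of all windows) nor the repeated AGGTCA (0.0396%) was in any of these 12, which leave out Angptl4. AGAACA, in 19.0% of all windows, was in 1 window of Mgll. GTAAACA, in 3.65% of all windows, was in 2 of the 12, 1 of Mgll and 1 of Lipe. A match is a run of letters and not a site shown to be bound, and an absence says only that these letters are not in this window.

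The first lipase of the pathway rose. Pnpla2 (ENSMUSG00000025509.15, chromosome 7, 141455198 to 141460743, plus strand, GRCm38 by GENCODE M21) was at 5.35, 4.98, 4.93 and 4.59 FPKM in fed libraries 1 to 4 and at 11.7, 9.20, 10.2 and 8.49 FPKM in the fasted ones. The lowest fasted library was well above the highest fed one. Means were 4.96 FPKM ± 0.310 fed and 9.91 ± 1.41 fasted (SD, n = 4 each), a log2(FPKM + 1) difference of 0.86 with SE 0.0860 and limma adjusted p = 0.000114. Within the replicate numbers the fasted to fed ratio was 2.20, 1.85, 2.07 and 1.85. These levels correspond to an estimated 230 to 269 fragments per fed library and 415 to 582 per fasted library on the longest annotated transcript. 5 other genes within 25000 bases of Pnpla2 were tested, and they are named after their values were seen. The tetraspanin gene Cd151 and the RNA polymerase subunit gene Polr2l fell, with log2 differences of -0.33 and -0.29 (limma adjusted p = 0.00793 and 0.0275). Another tetraspanin gene, Tspan4, had a positive difference of 0.38 that was not called (limma adjusted p = 0.0656), and Rplp2 and Slc25a22 were at -0.10 and -0.06 (limma adjusted p = 0.558 and 0.576).

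The gene of its co-activator did not pass the test. Abhd5 (chromosome 9, 122351608 to 122381524) was at 4.98, 4.90, 4.39 and 4.11 FPKM fed and 4.88, 4.26, 4.25 and 4.09 FPKM fasted, with a difference of -0.06 (95% interval -0.22 to 0.10; limma adjusted p = 0.576). Its groups overlapped almost wholly. In fed cortex Pnpla2 and Abhd5 stood at nearly the same level, with FPKM ratios of 1.02 to 1.12 within a library, and in fasted cortex the ratio was 2.08 to 2.41.

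Neither enzyme gene of the later steps passed the test. Mgll (chromosome 6, 88724412 to 88828360) was by far the most abundant of the 10 genes, at 41.6, 38.4, 37.0 and 33.4 FPKM fed and 40.5, 34.1, 33.9 and 36.0 FPKM fasted. The fasted values lay within the fed range, with a difference of -0.06 (95% interval -0.22 to 0.11; limma adjusted p = 0.619). Lipe (chromosome 7, 25379527 to 25398710) was at 2.07, 2.58, 1.84 and 1.52 FPKM fed and 2.48, 2.02, 1.81 and 2.26 FPKM fasted, a difference of 0.07 (95% interval -0.16 to 0.31; limma adjusted p = 0.65). It was higher in the fasted library under 2 replicate numbers and lower under 2. An antisense gene, 4732471J01Rik, overlaps Lipe on the other strand at 1.24 FPKM fed and 1.52 fasted, and since the sources do not say whether reads kept their strand, reads of the 2 genes may not be told apart.

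**Figure D2:**
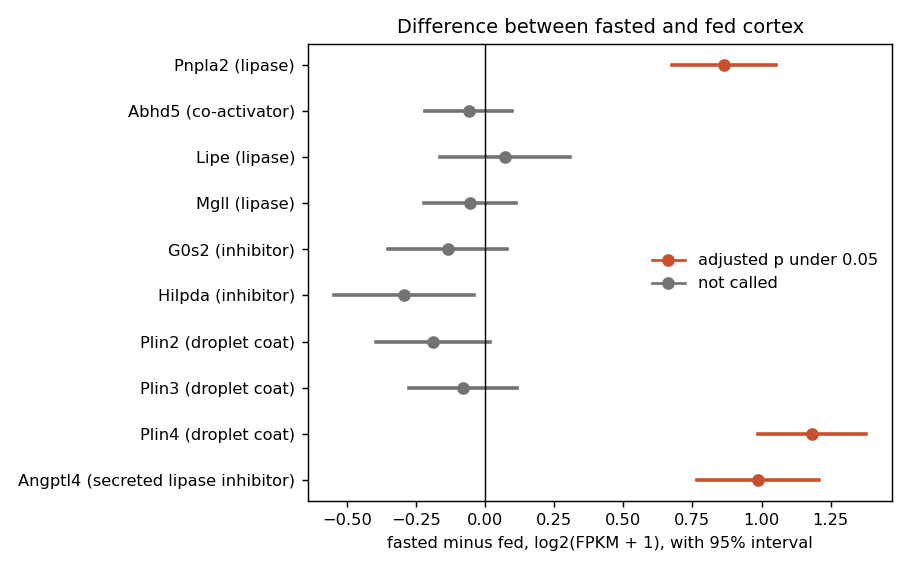
Fasted minus fed difference of each gene on the log2(FPKM + 1) scale (horizontal axis) with its 95% interval from limma, in red where the adjusted p was under 0.05. The intervals of Pnpla2, Plin4 and Angptl4 lie between 0.68 and 1.38, and that of Hilpda, which was not called, ends at -0.04.

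Neither gene for an inhibitor of the first lipase passed the test. G0s2 (chromosome 1, 193272161 to 193273217) was at 2.68, 2.24, 3.29 and 2.98 FPKM fed and 2.49, 2.93, 2.16 and 2.22 FPKM fasted, a difference of -0.14 (95% interval -0.35 to 0.08; limma adjusted p = 0.335). Its groups overlapped, and in replicate 2 the fasted library was the higher. Hilpda (chromosome 6, 29272488 to 29275446), also known as a gene induced in hypoxia, was at 3.35, 2.81, 2.53 and 2.60 FPKM fed and 2.81, 1.90, 1.58 and 2.27 FPKM fasted. Only fasted replicate 1 reached into the fed range. Within each of the 4 replicate numbers the fasted library was the lower, with ratios of 0.841, 0.676, 0.623 and 0.876. The difference was -0.29 (95% interval -0.55 to -0.04; limma adjusted p = 0.0824). It passed with the replicate number as a block (adjusted p = 0.0128) and without fasted replicate 1 (-0.39, adjusted p = 0.0216), and its adjusted p over all 17 alternatives ran from 0.0128 to 0.213. G0s2 and Hilpda are short transcripts with few fragments, an estimated 35 to 63 per fed library and 32 to 48 per fasted library.

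Among the perilipin genes 1 rose from a very low level. Plin4 (ENSMUSG00000002831.13, chromosome 17, 56100591 to 56109803, minus strand) was at 0.207, 0.170, 0.230 and 0.259 FPKM in fed libraries and at 2.22, 1.42, 1.84 and 1.6 FPKM in fasted ones. The groups were far apart, and the fasted to fed ratio was 10.7, 8.37, 8.0 and 6.21 within replicate numbers 1 to 4. Means were 0.217 FPKM ± 0.0374 and 1.77 ± 0.345 (SD, n = 4 each), a difference of 1.18 on the log2(FPKM + 1) scale with SE 0.0892 and limma adjusted p = 2.62e-05. The added 1 hides much of the change of so low a gene: with a pseudocount of 0.1 the difference was 2.56. The fed level rests on an estimated 18 to 28 fragments per library, and the fasted level on 141 to 230. Plin4 was the gene of the lowest level among the 10 in fed cortex, and in fasted cortex it reached that of Plin2.

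Plin2, which encodes the droplet coat found in most cell types, did not pass the test. It was at 1.72, 1.87, 1.59 and 1.62 FPKM fed and 1.33, 1.504, 0.977 and 1.72 FPKM fasted, with a difference of -0.19 (95% interval -0.40 to 0.02; limma adjusted p = 0.164). 3 of the 4 fasted libraries were below every fed one and fasted replicate 4 was within their range. Plin3, whose product moves between cytosol and droplets, was at 2.55, 2.55, 2.82 and 2.52 FPKM fed and 2.30, 2.49, 3.02 and 1.94 FPKM fasted, with a difference of -0.08 (95% interval -0.28 to 0.12; limma adjusted p = 0.543). The fasted values spread more widely than the fed ones and enclosed them. Plin2 lies on chromosome 4 (86648386 to 86670060) and Plin3 on chromosome 17 (56277476 to 56292873). The remaining perilipin genes, Plin1 and Plin5, were under the filter at means of 0.00707 and 0.118 FPKM fed and 0.00683 and 0.125 FPKM fasted, although Plin5 lies 1798 bases from Plin4 on the same strand. Both were chosen after their values were seen.

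Angptl4 rose as well. The gene (ENSMUSG00000002289.16, chromosome 17, 33773750 to 33781830, minus strand) was at 0.826, 0.745, 0.873 and 0.858 FPKM fed and at 3.05, 3.22, 2.15 and 2.18 FPKM fasted. All fasted libraries were above all fed ones, and fasted replicates 1 and 2 were higher than 3 and 4. Means were 0.826 FPKM ± 0.0572 and 2.65 ± 0.563 (SD, n = 4 each), a difference of 0.99 on the log2(FPKM + 1) scale with SE 0.101 and limma adjusted p = 0.000120. With a pseudocount of 0.1 it was 1.55. Estimated fragments were 44 to 54 per fed library and 143 to 183 per fasted library.

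A ratio of the FPKM of 2 genes within 1 library is not changed by scaling the whole library by 1 factor, although quantile scaling can change it. Such ratios are given for 6 pairs as a description with no test, since each sets a gene that rose against a gene that was not called and was chosen with these results known. As a ratio of FPKM, Plin4 to Plin2 was 0.0912 to 0.160 fed and 0.932 to 1.89 fasted, and Plin4 to Plin3 was 0.0666 to 0.103 fed and 0.571 to 0.965 fasted. Angptl4 to Hilpda, 2 genes both known to respond to fatty acids and hypoxia, was 0.247 to 0.345 fed and 0.961 to 1.70 fasted. Pnpla2 to its inhibitor gene G0s2 was 1.5 to 2.22 fed and 3.14 to 4.73 fasted. Pnpla2 to Mgll was 0.129 to 0.137 fed, a narrow range, and 0.236 to 0.301 fasted.

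**Figure D3:**
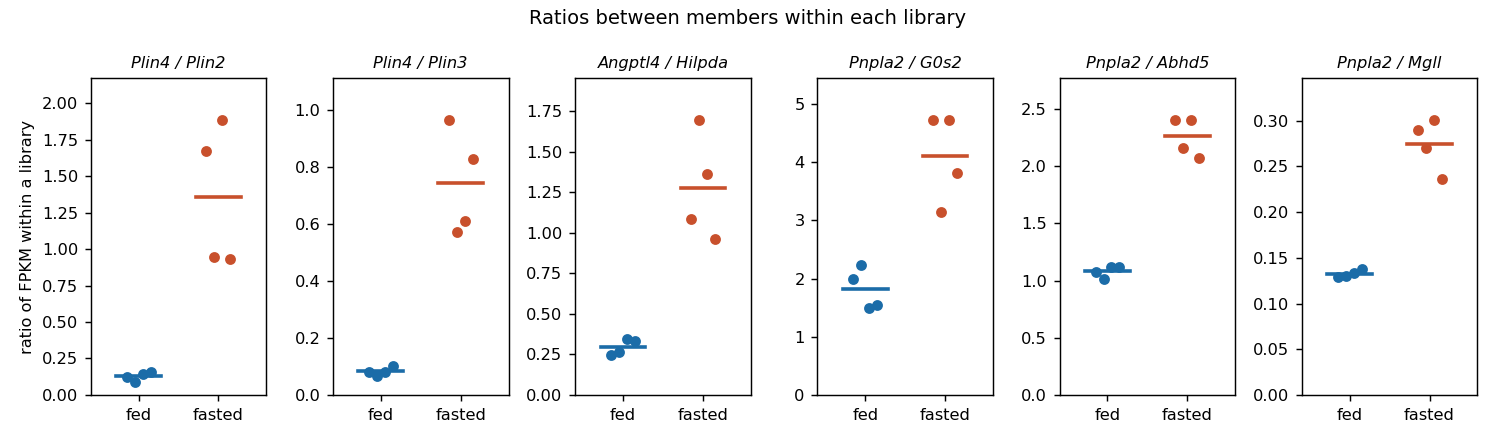
Ratio of the FPKM of 2 genes within the same library (vertical axes, from 0) for 6 pairs, with points for libraries 1 to 4 and lines for the mean of the ratios in each group. In every panel the 4 fasted libraries lie above the 4 fed ones, as with Plin4 to Plin2 at 0.932 to 1.89 against 0.0912 to 0.160.

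In order of fed level the 10 genes were Mgll (37.6 FPKM), Pnpla2 (4.96), Abhd5 (4.60), Hilpda (2.82), G0s2 (2.80), Plin3 (2.61), Lipe (2.0), Plin2 (1.70), Angptl4 (0.826) and Plin4 (0.217). The values of Pnpla2 and Abhd5 overlapped, as did those of Hilpda, G0s2 and Plin3, those of Plin3 and Lipe, and those of Lipe and Plin2, while the gaps above Pnpla2, below Abhd5, and around Angptl4 were free of overlap. In fasted cortex the order was Mgll (36.1), Pnpla2 (9.91), Abhd5 (4.37), Angptl4 (2.65), G0s2 (2.45), Plin3 (2.44), Lipe and Hilpda (2.14 each), Plin4 (1.77) and Plin2 (1.38). Below Abhd5, each gene overlapped with the next.

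The occipital cortex contains many cell types, and in bulk tissue fewer cells of a type and less RNA per cell cannot be told apart. Adipocytes, which hold high levels of Pnpla2, Lipe and Plin4, left little sign in these libraries: of 7 adipocyte markers none passed the filter on low values. Their summed level was 0.159 to 0.701 FPKM fed and 0.157 to 0.460 fasted. Cfd was listed at 0 in all 8 libraries, Adipoq at 0 in all fasted ones and Cidec at 0 in all fed ones. Fabp4 went the other way from Adipoq, with means of 0.0301 FPKM fed and 0.111 fasted. The summed levels of markers of vessels, microglia and oligodendrocyte precursors were lower in fasted cortex, without overlap. Single markers of vessels and precursors had positive differences that were not called, such as Pecam1 at 0.07, Tagln at 0.12 and Pdgfra at 0.06. Over all tested genes 9.56% rose and 16.3% fell, the shares to set beside the counts of each list. For endothelium the sum of 8 markers was 76.5 to 90.6 FPKM fed and 62.5 to 75.3 fasted (2 of 8 fell, none rose), for mural cells 48.9 to 58.3 and 36.9 to 42.7 (2 of 6 tested fell, none rose), and for microglia 92.6 to 125.4 and 77.0 to 87.3 (5 of 8 fell, none rose). For oligodendrocyte precursors the sum of 4 markers was 29.2 to 32.0 FPKM fed and 25.0 to 28.8 fasted (2 of 4 fell, none rose). None of the markers of these 4 lists was at 0 in all libraries. At an unadjusted p under 0.05 (limma) none of them rose either. Astrocyte markers summed to 770.5 to 828.5 FPKM fed and 760.8 to 837.0 fasted, with 1 of 8 higher and 3 lower. Oligodendrocyte markers summed to 1443 to 1803 FPKM fed and 1568 to 1873 fasted, with 1 of 7 higher and none lower, also at an unadjusted p. Of 8 excitatory neuron markers 5 fell, and their sums overlapped at 1176 to 1392 FPKM fed and 1231 to 1397 fasted. The part of these markers in the rises of Plin4, Angptl4 and Pnpla2 was not tested.

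Other lipase genes moved in both directions. Of 13 listed genes 12 were tested, 1 rose and 2 fell, a share near the 25.8% of all tested genes that changed. The median difference was -0.11 against -0.02 over all tested genes. After median-ratio or quantile scaling 2 rose and 2 fell. With the replicate block, or without ad libitum replicate 4 or fasted replicate 4, 1 rose and 3 fell. Pnpla7, of the same patatin-like family and acting on lysophospholipids, rose from 2.31 FPKM ± 0.220 to 3.36 ± 0.395 (SD, n = 4 each), a log2(FPKM + 1) difference of 0.39 (limma adjusted p = 0.00485). Lipa, the acid lipase of the lysosome, fell from 4.84 FPKM ± 0.354 to 3.59 ± 0.132 (SD, n = 4 each), with a difference of -0.35 (limma adjusted p = 0.00258), and the phospholipase gene Ddhd1 by 0.24 (limma adjusted p = 0.0105). Its relative Ddhd2, chosen after its values were seen and known as a triglyceride hydrolase of neurons, had a difference of -0.10 that was not called (limma adjusted p = 0.170).

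Of 20 other proteins of the droplet surface 15 were tested, with 1 rise and 3 falls and a median difference of -0.09. The share changed was near the 25.8% of all tested genes. Acsl3, which encodes an acyl-CoA synthetase of nascent droplets, rose by 0.27 (limma adjusted p = 0.0118). Ldah, a droplet-associated hydrolase gene, had a difference of -0.37 (limma adjusted p = 0.0112), and Aup1, which links droplets to protein degradation in the endoplasmic reticulum, of -0.35 (limma adjusted p = 0.00217). Acsl4 was at -0.22 (limma adjusted p = 0.0428), a call lost when ad libitum library 2, 3 or 4 or fasted library 1 or 2 was left out (adjusted p up to 0.117), after median-ratio scaling (0.0923) and after quantile scaling (0.101). With the replicate block 2 rose and 3 fell. After median-ratio or quantile scaling 2 rose and 2 fell. Without ad libitum replicate 1, 2 rose and 5 fell, and without fasted replicate 4, 2 rose and 3 fell.

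Genes that build droplets and triglyceride moved in both directions. Of 19 listed 12 were tested, 5 rose and 2 fell, with a median of 0.06. Over all tested genes 9.56% rose and 16.3% fell. Dgat2, an acyltransferase of the last step of triglyceride synthesis, rose from 15.9 FPKM ± 1.45 to 22.4 ± 1.82 (SD, n = 4 each), a difference of 0.47 (limma adjusted p = 0.00144), and Lpin1, a phosphatidate phosphatase gene, by 0.25 (limma adjusted p = 0.00570). Agpat1, which acts in phosphatidate synthesis, was at -0.50 (limma adjusted p = 0.000644), and Bscl2, which encodes the droplet assembly protein seipin, at -0.27 (limma adjusted p = 0.0123). These 4 calls held when any 1 of the 8 libraries was left out. The number of rises was 2 when ad libitum library 1 or 3 or fasted library 3 was left out, and 3 for fasted library 1, 2 or 4.

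The target of the Angptl4 protein fell. Lpl, the gene of lipoprotein lipase, went from 3.42 FPKM ± 0.271 to 2.02 ± 0.193 (SD, n = 4 each), a difference of -0.55 (limma adjusted p = 0.000490). Of the 12 listed genes of its axis 5 were tested, with a median of -0.18. Of these 2 fell (16.3% of all tested genes did) and none rose, also none at an unadjusted p under 0.05 (limma). The other was Sel1l, which takes part in the maturation of the enzyme, at -0.18 (limma adjusted p = 0.0213), a call lost on leaving out ad libitum library 2 or 3 or fasted library 4 (adjusted p up to 0.0622), which left 1 fall. With the replicate block 4 fell. The microglial markers named above as lower are the values to set beside Lpl, which microglia are known to express, and their part in its fall was not tested.

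Endocannabinoid genes, the setting in which Mgll acts in the brain, had no call. Of 9 tested genes of 10 none rose or fell in the limma test, against 2 higher and 1 lower at an unadjusted p under 0.05, with a median of 0.06. Over all tested genes 25.8% changed. Nearest to the threshold were the cyclooxygenase gene Ptgs2 at 0.44 (limma adjusted p = 0.0681) and Napepld, which acts in anandamide synthesis, at 0.19 (limma adjusted p = 0.0745). With the replicate block both were called, Ptgs2 at adjusted p = 0.00332 and Napepld at 0.0361. After median-ratio or quantile scaling 2 genes rose, Napepld and Abhd12, the latter named after its values were seen. Ptgs2 was not called under these scalings (limma adjusted p = 0.0916 and 0.0945). Leaving out ad libitum library 4 or fasted library 2 gave 1 rise, and leaving out fasted library 4 gave 1 fall.

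In the signalling that controls lipolysis in adipose tissue, 14 of 18 listed genes were tested, with a median of -0.05. Of these 2 fell (16.3% of all tested genes did) and none rose (1 rose at an unadjusted p under 0.05, limma). Akt2, a kinase gene of the insulin pathway, went from 25.9 FPKM ± 2.24 to 15.6 ± 0.936 (SD, n = 4 each), a difference of -0.69 (limma adjusted p = 0.000107). Prkar2b, a regulatory subunit gene of protein kinase A, was at -0.43 (limma adjusted p = 0.000342). With the replicate block 1 rose and 3 fell, and without ad libitum replicate 4, 1 rose and 2 fell.

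Of 19 genes for transcription factors and coregulators known to act on the 10 genes, 16 were tested, 5 rose and 2 fell, with a median of 0.10. The shares over all tested genes were 9.56% and 16.3%. Cebpa rose by 0.42 (limma adjusted p = 0.00139) and Nr3c2, the mineralocorticoid receptor gene, by 0.33 (limma adjusted p = 0.00611). Arnt, the partner of the hypoxia-inducible factors, was at -0.20 (limma adjusted p = 0.0191), lost on leaving out ad libitum library 2 or 3 or fasted library 1 (adjusted p up to 0.0553). Nr3c1, the glucocorticoid receptor gene, was at -0.21 (limma adjusted p = 0.0246), lost on leaving out ad libitum library 3 or fasted library 2 (adjusted p up to 0.0798) and after median-ratio scaling (0.0641). The number of rises was 3 with no filter on low values and 2 when ad libitum library 1 or 3 or fasted library 1, 2 or 3 was left out. The number of falls was 1 after median-ratio scaling and when ad libitum library 2 or fasted library 1 or 2 was left out, and 0 for ad libitum library 3.

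Angptl4 is known to be induced by glucocorticoids, by PPARs and in hypoxia, and other genes known to respond to each were counted. All 3 lists were chosen with earlier results of these data known, so that their counts are given as a description. Of 10 glucocorticoid-induced genes all 10 rose, with a median of 0.83. The count was 9 without ad libitum replicate 2 or fasted replicate 4. With the filter at 1 FPKM in all libraries 9 were tested and 9 rose. Fkbp5 went from 3.89 FPKM ± 0.352 to 14.2 ± 2.55 (SD, n = 4 each), a difference of 1.63 (limma adjusted p = 1.48e-05), and Sgk1 rose by 1.16 (limma adjusted p = 1.85e-05). Of 14 PPAR-induced genes 9 were tested, 3 rose and none fell, also none at an unadjusted p under 0.05 (limma), with a median of 0.15. Among them were Ucp2 at 0.68 and Pdk4 at 0.44, which stands in the glucocorticoid list too. Of 12 hypoxia-induced genes 11 were tested, 3 rose and 3 fell, with a median of -0.06. Slc2a1 and Adm rose by 0.68 and 0.43, and Vegfa and Pdk1 were both at -0.36 (limma adjusted p = 0.000341, 0.00967, 0.000972 and 0.000923). Over all tested genes 9.56% rose and 16.3% fell, and the 3 counts were not tested against each other. The part of glucocorticoids, PPARs or hypoxia in the rise of Angptl4 was not tested.

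**Figure D4:**
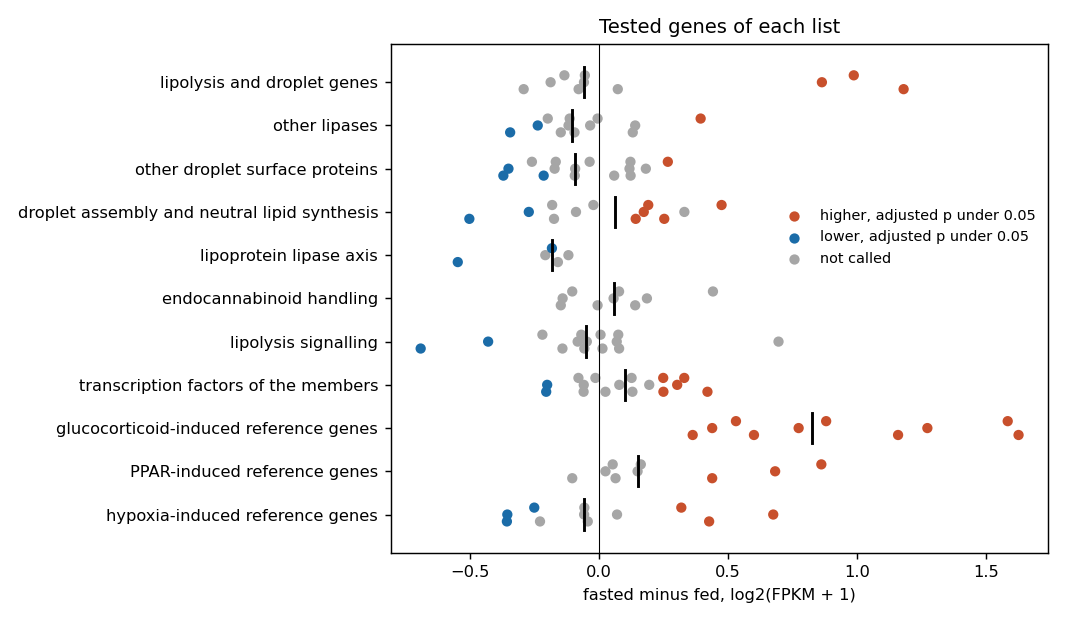
Fasted minus fed difference on the log2(FPKM + 1) scale (horizontal axis) of each tested gene in the 10 lipolysis and droplet genes and in each list, with a black line at the list's median. Red points rose and blue points fell at an adjusted p under 0.05. The 3 rises of the top row, from 0.86 to 1.18, lie above every gene of the lipase, droplet surface and droplet assembly lists.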

How the data were processed

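RNA-seq was analysed from 8 samples of mouse occipital cortex, 4 fasted and 4 fed ad libitum, grouped by the treatment label. Per the submitters' processing notes TopHat and mm10 were used; for version, quantifying program, annotation and strandedness, nothing is given in the sources used here. The authors deposited FPKM in 1 table of 24883 rows, with no scaling between libraries stated; of 282 symbols on several rows (none among the 10 genes) the highest-mean row was used, and 0 value columns were left unmapped. FPKM was tested as log2(FPKM + 1) with limma 3.58.1 in R 4.3.3 (group only, trend and robust moderation) on the 12377 genes that reached 1 FPKM in 4 or more libraries, adjusted by Benjamini-Hochberg over all of them, with 0.05 as threshold. Depth (17.2 to 21.7, in units of 1000000 fragments) was estimated from FPKM times length in 5674 genes with a single GENCODE M21 transcript (GRCm38, the assembly of mm10), as the densest value between 0.02 and 0.2, taken as 1 fragment. Fragment numbers carry counting error and that of this estimate. Library values were compared by exact permutation over 70 unpaired assignments. The fit was also run on simulated data with noise drawn independently for each library, which does not copy the shared deviations given next. The outcome of that run is not reported here. Same-numbered libraries deviated together (correlations across genes of 0.574, 0.496, 0.382 and 0.523, all over 0.1), although no label states a pairing. Such libraries also largely shared which of Xist and Ddx3y was high, so that a shared sex and another link cannot be told apart. The main fit and the permutations did not use the replicate numbers. They entered only the ratios within replicate numbers and the alternative fits with the replicate block or the term for odd and even numbers. The genes, lists and tests were chosen with earlier results of these data known. Named were all 10 genes, from each list up to 4 called genes with the smallest p or the 2 nearest where none was called, and Fkbp5, Sgk1, Pdk4, Slc2a1 and Vegfa. A gene that this rule names is not reported here. Alternatives were another pseudocount, other filters, scalings and moderation, the replicate block, a term for odd and even numbers, and each library left out. The combination of no filter with a pseudocount of 0.1 was chosen after seeing the data. Python 3.11.15 with pandas 2.3.3, statsmodels 0.14.6 and matplotlib 3.10.9 prepared tables and figures.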

Additional observations from a re-analysis of the deposited data

Results flagged for a closer look

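In 26 groups of 4 values (the 10 genes and 3 library measures in each feeding group), 1 value stood far from the rest of its group by its gap relative to the group's range. It was Plin3 in ad libitum replicate 3, at 2.82 FPKM against 2.52 to 2.55 in the other fed libraries. Chance flags about 1 in 20 groups. Without that library Plin3 had a difference of -0.05 on the log2(FPKM + 1) scale (limma adjusted p = 0.753), so that it was not called with or without it.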

How the results depend on the processing

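The rises of Plin4, Angptl4 and Pnpla2 kept their direction and passed the limma test under every alternative that could be fitted, with log2 differences of 1.11 to 2.56, 0.91 to 1.55 and 0.79 to 0.97 and adjusted p up to 0.000305, 0.000792 and 0.000871. With the filter at 1 FPKM in all libraries Plin4, Angptl4 and Plin2 were not tested, which left 1 of the 10 genes higher. The replicate block gave 1 lower gene, Hilpda (adjusted p = 0.0128), and changed no other call among the 10. Leaving out 1 library gave 3 higher genes each time and 0 to 1 lower. Lipe, not called, ran from -0.0084 (without ad libitum replicate 4) to 0.16. Quantile scaling gave 1788 higher genes over the whole table, against 1183, and 1773 were higher and 2733 lower with the replicate block. The estimated depth differed by 0.420 between groups (fasted minus fed, in units of 1000000 fragments), and by -0.478 without fasted replicate 3 (-0.478 to 1.03 when 1 library was left out). The FPKM total over distinct symbols differed by -27358, with a range of -43152 to -7639 when 1 library was left out. Without ad libitum replicate 4 it reached the smallest p that exact permutation over unpaired assignments can give (p = 0.0286). Single microRNA entries weigh on these totals: Mir684-1 was at 40326 FPKM in ad libitum replicate 2, Mir6363 at 32387 in ad libitum replicate 3 and Mir703 at 17729 in fasted replicate 2. Totals ran from 253470 to 360010 FPKM per library, and from 243355 to 273310 without the 10 highest genes of each library. Depth limits most the genes with the fewest estimated fragments per library: Plin4 and Angptl4 in fed cortex, and G0s2, Hilpda and Plin2 in both groups.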
